A study of Drosophila melanogaster with 6 samples.

Results

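The cyclins, cyclin-dependent kinases and 2 of their regulators were examined in Drosophila S2 cells that had been given fragments of apoptotic cells. The genes were CycA, CycB, CycB3, CycD, CycE, Cdk1, Cdk2, Cdk4, the Cdk1-activating phosphatase gene stg and the Cdk2 inhibitor gene dap. A gene was included where the array annotation gave a probe set that single gene symbol. This found 6 of the 10 genes (CycB, CycB3, CycD, CycE, Cdk2 and Cdk4), with 1 probe set each, among 11982 genes named in this way on the array. The annotation used here listed no probe set for CycA, Cdk1, stg or dap, by symbol or by gene identifier, so these 4 were not analysed here. The kinase of the mitotic cyclins and both regulators of Cdk activity are therefore missing from the results below.

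S2 is a macrophage-like line established from Drosophila embryos that takes up particles. The 3 cultures of the fragments group had received 25 fragments per cell for 1 h at 25 °C, and the 3 cultures of the medium-alone group had received none. The fragments came from S2 cells killed with the protein synthesis inhibitor cycloheximide at 1.5 μg/ml for 24 h, so donor and recipient are the same line. Both groups stood in medium with 1% serum after maintenance in 10%, and both were detached with trypsin and EDTA. RNA or inhibitor carried in with the fragments cannot be told apart here from a change in the recipient cells. For a bulk culture, fewer cells in a cell cycle phase and less RNA per cell cannot be told apart either.

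Cyclins are regulatory subunits that switch on their kinase partners at set points of the cell cycle. In Drosophila, CycD with Cdk4 acts in G1 and promotes growth, CycE with Cdk2 starts DNA replication, and CycA, CycB and CycB3 with Cdk1 carry the cell through mitosis. Their activity is set largely by protein destruction, inhibitory phosphorylation, which stg removes, and inhibitors such as dap. A transcript level is only the first of these layers.

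The data were 1 normalized log2 value per probe set and array. A difference of 1 on this scale is a 2-fold change. Of 18769 probe sets tested, 11528 (61.4%) moved by less than 0.01 log2 units over the 6 arrays and are called flat here. The other 7241 are called varying. Differences are fragments minus medium alone, tested with limma and Benjamini-Hochberg adjustment. An adjusted p under 0.05 counted as past the threshold. The test was run over all probe sets and again among the varying ones, since the flat ones shrink the estimated spread that limma shares between probe sets to almost 0. Over all probe sets, Pearson correlations were 0.997 to 0.999 within the fragments group. In the medium-alone group they were 0.9993 for replicates 1 and 2, and 0.990 and 0.991 where replicate 3 was one of the arrays, so that array stood apart. The labels call the replicates biological without naming separate days or passages, and 3 arrays a group limit the precision of every value below.

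After 1 h with fragments, the S-phase cyclin CycE, its kinase Cdk2 and the mitotic cyclin CycB3 had lower values on every fragments array than on any medium-alone array, and their means were 1.52-fold to 1.71-fold lower. The G1 kinase Cdk4 was 1.35-fold higher on average, and CycB was lower by 1.12-fold. The value of CycD was flat. Over all probe sets 0 of the 6 passed in limma, where 0.304% of all 18769 probe sets passed, 0.25% lower and 0.0533% higher with fragments. An unadjusted limma p under 0.05 was reached there by the 5 varying ones, and by 10.8% of all probe sets. In the fit among the varying probe sets such a p was reached by the same 5, and by 23.6% of all varying probe sets. Among the varying probe sets 3 of the 5 passed, all lower with fragments (CycB3, CycE and Cdk2), where 6.85% of the 7241 passed, 4.56% lower and 2.29% higher. The groups did not overlap in any of the 5, as was the case in 32% of varying probe sets. The median difference of the 6 probe sets was -0.38, flat CycD included, beside -0.0035 for all varying probe sets.

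**Figure D1:**
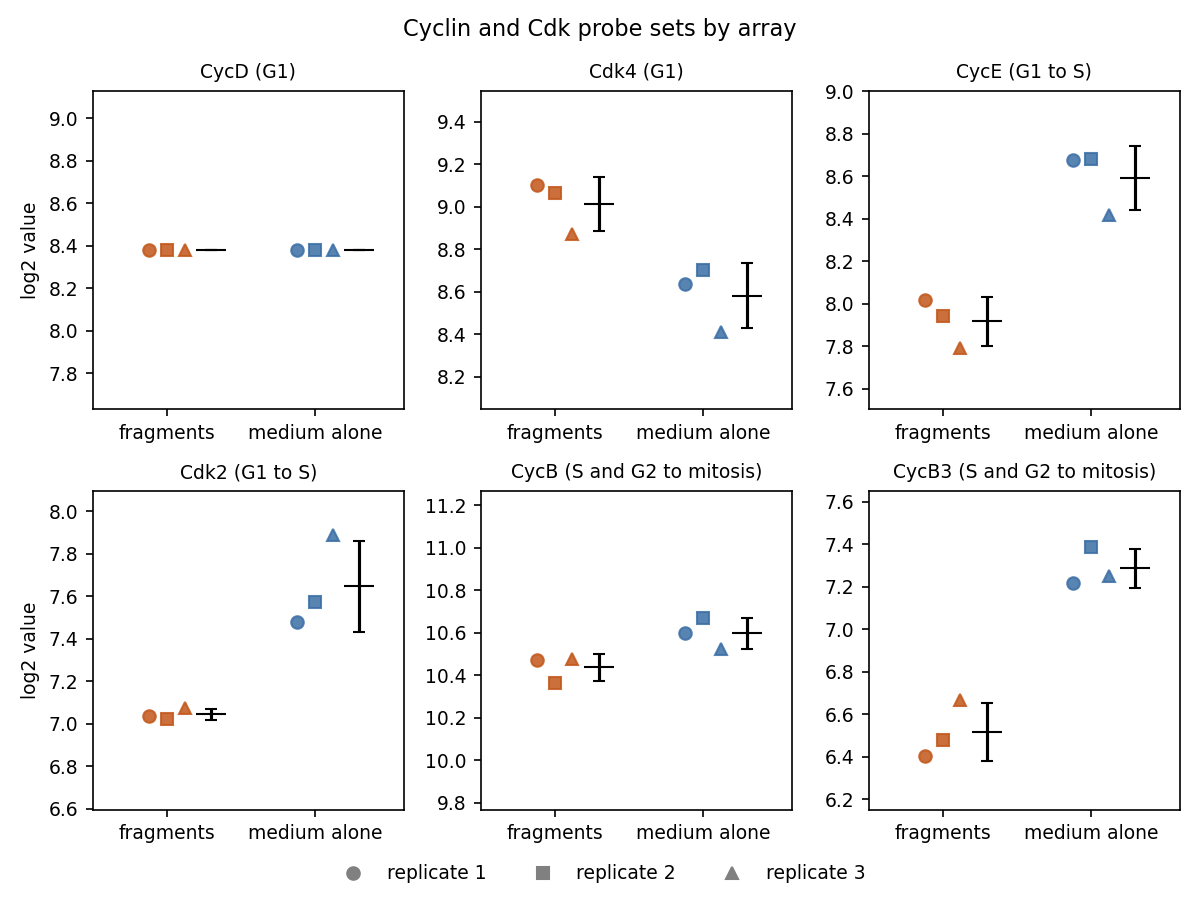
Log2 values of the 6 probe sets, by array, with the fragments group left of medium alone in each panel. Symbols are replicates, black bars are group means with SD (n = 3), and each vertical axis spans the same 1.5 log2 units around its own centre. CycE, Cdk2, CycB3 and, by a gap of only 0.046, CycB lie lower on all 3 fragments arrays. Cdk4 lies higher, and CycD has the same value on all 6.

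Of the G1 pair, only Cdk4 could be followed. CycD, the D-type cyclin, read 8.38 on each of the 3 fragments arrays and on each of the 3 medium-alone arrays (probe set 1627295_s_at). Its range over the 6 arrays was 4.3e-08 log2 units, and such a flat value can show no change in either direction. Cdk4, the kinase that CycD activates (probe set 1639347_s_at), read 9.10, 9.06 and 8.87 on the fragments arrays, against 8.64, 8.70 and 8.41 on the medium-alone arrays. The lowest fragments array stood 0.17 above the highest medium-alone array, and replicate 3 was the lowest of its group in both groups. The means were 9.01 ± 0.125 with fragments and 8.58 ± 0.153 in medium alone (SD, n = 3 each). The difference of 0.43 had a 95% interval of 0.17 to 0.69 among the varying probe sets and did not pass (limma adjusted p = 0.0751, and 0.326 over all probe sets). A difference at least as high was seen in 5.5% of varying probe sets.

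The G1 to S pair was lower with fragments in both of its parts. CycE, the cyclin that triggers entry into S phase (probe set 1626249_s_at), read 8.02, 7.94 and 7.79 on the fragments arrays, against 8.68, 8.68 and 8.42 on the medium-alone arrays. The nearest arrays of the 2 groups were 0.40 apart, and replicate 3 was again the lowest of each group. The mean was 7.92 ± 0.114 with fragments and 8.59 ± 0.151 in medium alone (SD, n = 3 each), a difference of -0.67 with a 95% interval of -0.92 to -0.43 among the varying probe sets. CycE passed there (limma adjusted p = 0.0217) and not over all probe sets (0.172). Of the varying probe sets, 2.46% had a difference as low or lower.

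Cdk2, the kinase partner of CycE (probe set 1640394_s_at), read 7.04, 7.02 and 7.07 on the fragments arrays, against 7.48, 7.58 and 7.89 on the medium-alone arrays. The fragments arrays lay close together, within an SD of 0.026, while the medium-alone arrays had an SD of 0.213, with replicate 3 the highest. The difference was -0.60, a 1.52-fold change, with a 95% interval of -0.88 to -0.33 among the varying probe sets. Cdk2 passed there (limma adjusted p = 0.0389) and not over all probe sets (0.234). Without medium-alone replicate 3 the difference was -0.48, so part of its size rests on that array, and the adjusted p among the varying probe sets was then 0.00553. The changes of CycE and Cdk2 differed from each other by -0.072 with an SE of 0.223, and the groups overlapped in that difference.

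The 2 mitotic cyclins with a probe set had unequal values. CycB3, a B-type cyclin that is destroyed late in mitosis (probe set 1626454_at), read 6.40, 6.48 and 6.67 on the fragments arrays, against 7.22, 7.39 and 7.25 on the medium-alone arrays. The gap between the nearest arrays of the groups was 0.55, the widest of the 5 varying probe sets. The mean was 6.52 ± 0.136 with fragments and 7.29 ± 0.091 in medium alone (SD, n = 3 each). These are low values, since the median of all probe sets was 6.45 to 6.46 on the fragments arrays, and there were no detection calls. The difference was -0.77, a 1.71-fold change, with a 95% interval of -0.99 to -0.56 among the varying probe sets. CycB3 passed there (limma adjusted p = 0.0103) and not over all probe sets (0.107). As low a difference was found in 1.71% of varying probe sets.

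CycB, the main B-type cyclin of mitotic entry (probe set 1639876_a_at), read 10.47, 10.36 and 10.48 on the fragments arrays, against 10.60, 10.67 and 10.52 on the medium-alone arrays. The groups were separated by only 0.046, less than the SD within either group, 0.064 with fragments and 0.073 in medium alone. The difference of -0.16 had a 95% interval of -0.30 to -0.021 among the varying probe sets and did not pass (limma adjusted p = 0.161, and 0.440 over all probe sets). Of the varying probe sets, 18.9% had a difference as low or lower.

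**Figure D2:**
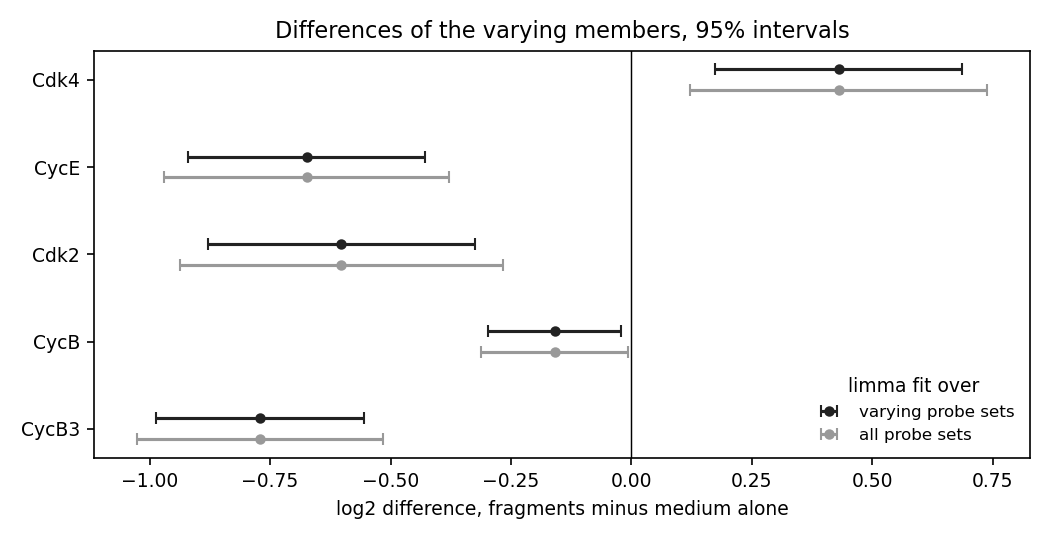
Difference in log2 value, fragments minus medium alone, for the 5 varying probe sets, with 95% intervals from the limma fit among varying probe sets (black) and over all probe sets (grey). The intervals are for each probe set alone and are not adjusted. CycB3, CycE and Cdk2 lie between -0.77 and -0.60, CycB lies at -0.16, and Cdk4 lies at 0.43.

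Cdk4 and the 3 lower genes moved apart on the same arrays. Such a contrast does not depend on a shift of a whole array, which adds the same amount to both genes. It can depend on quantile normalization, which does not move all genes equally. The change of Cdk4 exceeded that of Cdk2 by 1.03 log2 units (SE 0.224), that of CycE by 1.10 (SE 0.023) and that of CycB3 by 1.20 (SE 0.168). Cdk4 was chosen for these contrasts because it lay on the other side of 0, so their sign and the separation of the groups were fixed by that choice. The small SE against CycE goes with replicate 3 being low for both genes in both groups.

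The direction of a small change does depend on the scale, and none of the scales used here measures RNA per cell. Transcripts of bacterial and phage origin are added to every array as hybridisation spikes, and they read 10.38 ± 0.106 on the fragments arrays and 10.65 ± 0.160 on the medium-alone arrays (SD, n = 3 each, p = 0.2 by an exact permutation test, two-sided, which can give no p below 0.1 here). Setting each array to its spikes adds 0.26 to every difference. CycB3, CycE and Cdk2 were then lower by smaller amounts, with differences of -0.51, -0.41 and -0.34, CycB turned to 0.10 and Cdk4 stood at 0.69. Among the varying probe sets on that scale CycB3 and Cdk4 passed (limma adjusted p = 0.0141 and 0.000427), and CycE and Cdk2 did not (0.0568 and 0.127). When each array was centred on the median of its varying probe sets, CycB3, CycE, Cdk2 and Cdk4 all passed among them (adjusted p = 0.00429, 0.011, 0.0446 and 0.0457). After quantile normalization of the varying probe sets, CycB3 and CycE passed (0.00914 and 0.0206), while Cdk2 and Cdk4 did not (0.0605 and 0.0612). Of all 7241 varying probe sets, 1490 passed on the spike scale, 598 after centring and 570 after quantile normalization, beside 496 as deposited.

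Each array was left out in turn. Among the varying probe sets CycB3 passed in 5 of the 6 omissions, with limma adjusted p of 0.013 to 0.0611, the last without fragments replicate 2. CycE and Cdk2 each passed in 1 of the 6, without medium-alone replicate 3, and their adjusted p otherwise lay between 0.0582 and 0.099 for CycE and between 0.0605 and 0.151 for Cdk2. Without medium-alone replicate 3, 876 of the 7241 varying probe sets passed, against 129 to 318 in the other omissions. Cdk4 and CycB passed in 0 of the 6, with adjusted p of 0.063 to 0.232 and 0.0817 to 0.379. The direction of each of the 5 was the same in all 6 omissions. The difference of CycB3 ranged from -0.85 to -0.71, that of CycE from -0.76 to -0.61 and that of Cdk2 from -0.69 to -0.48.

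**Figure D3:**
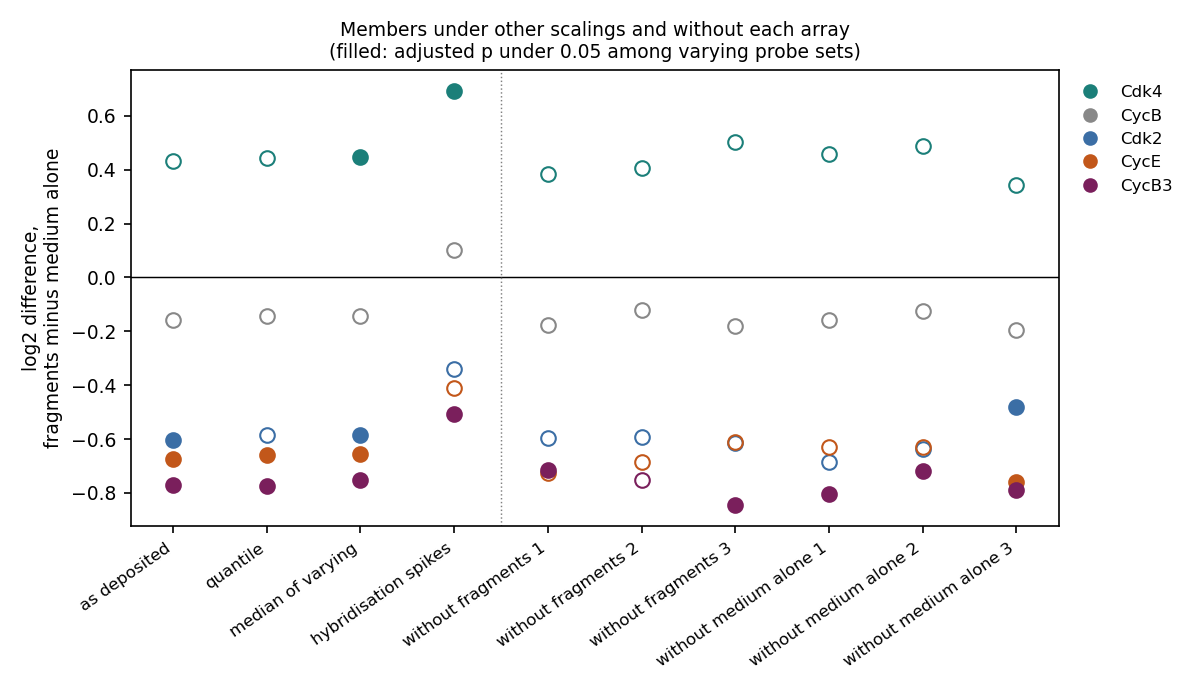
Difference in log2 value, fragments minus medium alone, of the 5 varying probe sets, tested among varying probe sets, under 4 scalings (left of the dotted line) and with 1 array left out (right). Filled points have a limma adjusted p under 0.05. CycB3 is filled at 9 of the 10 positions, and CycB crosses 0 on the spike scale only.

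Further cell cycle genes were taken in 5 lists with 65 measured genes of 79 listed. A gene with several probe sets was read from the one with the highest mean. Of these, 22 were flat and 43 varying. Over all probe sets 1 of the 65 passed in limma, lower with fragments (0.304% of all probe sets passed). An unadjusted p under 0.05 was reached there by 12 (10.8% of all probe sets, of which 61.4% were flat). In the fit among the varying probe sets such a p was reached by 15 of the 43, beside 23.6% of all varying ones. Among the varying probe sets 3 of the 43 passed, all lower, which is near the 6.85% of all varying probe sets and is no result about the lists. The median difference of the 43 was -0.11, beside -0.0035 for all varying probe sets. The groups did not overlap in 19 of the 43 (44.2%, beside 32% of all varying probe sets). Of the 43, 14 were lower and 5 higher on all fragments arrays, beside 17.4% and 14.7% of all varying probe sets. Medium-alone replicate 3 was the highest of the 6 arrays for 22 of the 43 genes (51.2%), for 1 of the 5 varying cyclin and Cdk probe sets, Cdk2, and for 29.9% of all varying probe sets. Where leaving that array out moved the difference of a named gene of these lists by over 1.5 times or changed its call, the value without it is given below.

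Among other cyclins, Cdks and Cdk-binding proteins, 15 of 17 were measured and 11 varied. CycY, a cyclin that partners the kinase Eip63E, averaged 8.92 ± 0.180 with fragments and 9.62 ± 0.207 in medium alone (SD, n = 3 each), a difference of -0.71. It passed among the varying probe sets (limma adjusted p = 0.0476, and 0.259 over all), but in only 1 of the 6 omissions of an array, that of medium-alone replicate 3. Eip63E itself went the other way, with 9.33 ± 0.058 with fragments and 9.01 ± 0.223 in medium alone (SD, n = 3 each). Its difference of 0.32 did not pass (0.186), and it was 0.19 without medium-alone replicate 3. CycT, a cyclin of transcription elongation, differed by 0.31 and did not pass (0.350), and its difference was 0.12 without that array. Cdk8, the kinase of the Mediator complex, differed by -0.31 and Cks30A, a small Cdk-binding protein, by -0.59, and neither passed (0.0535 and 0.119 among the varying probe sets). The second small Cdk-binding protein, Cks85A, read 7.75, 7.69 and 7.94 with fragments, against 8.07, 7.97 and 8.89 in medium alone, where replicate 3 stood far above the others. Its difference of -0.52 did not pass (0.309) and was -0.23 without that array.

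In the list of E2F, Rb and G1 to S control, 12 of 16 genes were measured and 11 varied. Cdc6, an ATPase of replication origin licensing, averaged 7.48 ± 0.098 with fragments and 8.38 ± 0.050 in medium alone (SD, n = 3 each). It fell by 0.90 on the log2 scale, and it was the only one of the 65 list genes to pass over all probe sets (limma adjusted p = 0.0470). Over all probe sets that call ended with any 1 array left out (0.112 to 0.27), and among the varying probe sets it passed in all 6 omissions. Rbf2, a pocket protein that represses E2F targets, differed by -0.19, and chif, the Dbf4-type partner of the replication kinase Cdc7, by 0.86. Neither passed (0.0908 and 0.118 among the varying probe sets), and a second probe set for chif differed by -0.015. Without medium-alone replicate 3 the difference of chif was 0.58 and passed among the varying probe sets (0.0331), as did 876 of those 7241. PCNA, the sliding clamp of DNA polymerase, differed by -0.46 and did not pass (0.211). It read 10.86, 11.01 and 11.29 with fragments, against 11.39, 11.30 and 11.84 in medium alone, so the groups were separated by less than the spread within either. Without medium-alone replicate 3 its difference was -0.29.

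The mitotic lists held 0 genes past the threshold in either limma fit. Of the mitotic entry kinases and phosphatases 5 of 10 were measured and 4 varied, and an unadjusted p under 0.05 was reached among the varying probe sets by aurB and gwl, 2 of the 4, beside 23.6% of all varying probe sets. The Aurora B kinase gene aurB differed by -0.52, the Greatwall kinase gene gwl by -0.17 and its substrate gene endos by -0.070 (limma adjusted p = 0.120, 0.125 and 0.385 among the varying probe sets). For endos it was -0.044 without medium-alone replicate 3. Of the anaphase-promoting complex and spindle checkpoint genes 20 of 22 were measured and 11 varied. Of the 11, 2 had an unadjusted p under 0.05, a share below the 23.6% of all varying probe sets. The Cdc20 gene fzy, which directs cyclins to destruction, differed by -0.30, the separase partner thr by -0.23 and the securin gene pim by -0.33 (0.0759, 0.0853 and 0.218). Without medium-alone replicate 3, where pim read 9.04, its difference was -0.18. The other 2 probe sets for fzy were flat.

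In the DNA damage checkpoint list, 13 of 14 genes were measured and 6 varied. The largest difference of the 65 genes was that of grp, the Drosophila Chk1 kinase gene, which averaged 8.85 ± 0.087 with fragments and 10.04 ± 0.158 in medium alone (SD, n = 3 each). The nearest arrays of the 2 groups were 1.01 apart. The difference of -1.18 passed among the varying probe sets (limma adjusted p = 0.00419) in the full set and in all 6 omissions of an array, and it did not pass over all probe sets (0.0622). The other 2 probe sets for grp were flat at 6.53 and 6.54. The Chk2 gene lok and the nuclease gene mre11 differed by -0.11 and -0.20 and did not pass (0.249 and 0.344). For mre11 the difference was -0.091 without medium-alone replicate 3.

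**Figure D4:**
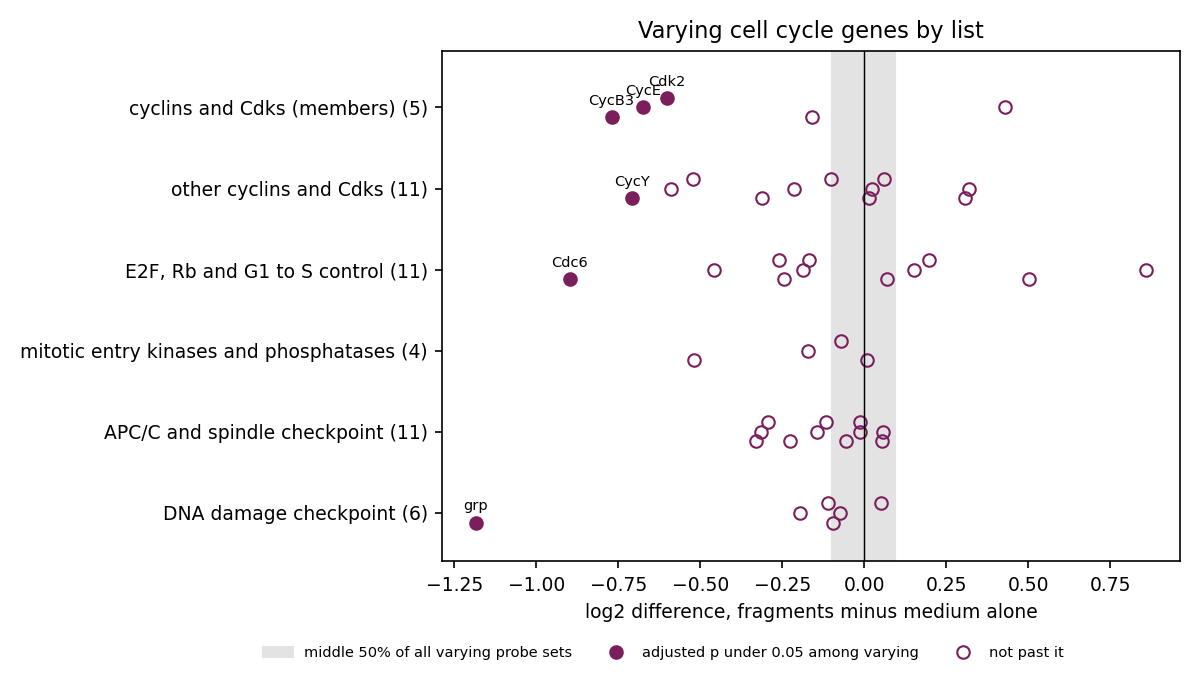
Difference in log2 value, fragments minus medium alone, of every varying gene of the cyclin and Cdk set and of 5 cell cycle lists (number of varying genes in brackets). The grey band holds the middle 50% of all varying probe sets, and filled points passed among varying probe sets (limma adjusted p under 0.05). The filled points are CycB3, CycE, Cdk2, CycY, Cdc6 and grp, all left of 0.

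Levels of different probe sets cannot be set against each other on an array, so marker genes check the label of the cells only in part. All 10 hemocyte markers were measured, and their mean log2 level was 7.98 to 8.03 on the fragments arrays and 7.82 to 8.15 on the medium-alone arrays. The hemocyte GATA factor gene srp averaged 10.97 with fragments and 10.68 in medium alone, and the hemocyte gene Hml 9.30 in both groups. On the medium-alone arrays srp read 10.91, 10.97 and 10.16 and Hml 9.66, 9.54 and 8.68, so replicate 3 lowered both means. The scavenger receptor gene crq averaged 9.30 with fragments and 10.10 in medium alone. It was the only 1 of the 8 varying hemocyte markers to pass among the varying probe sets, of which 6.85% passed. The plasmatocyte marker NimC1 was flat at 6.09 and Sr-CI at 5.94, which does not show that they are absent. Of 12 markers of other cell types 9 were measured and 6 were flat, with a mean level of 6.63 to 6.69 with fragments and 6.47 to 6.60 in medium alone. The neuronal gene elav varied, with 8.43 with fragments and 8.14 in medium alone, and did not pass (limma adjusted p = 0.466). It read 8.47, 8.26 and 7.70 on the medium-alone arrays, with replicate 3 the lowest. The germline gene bam averaged 7.81 with fragments and 6.90 in medium alone. Of the 3 varying markers of other cell types it was the only 1 to pass (limma adjusted p = 0.0224), beside 6.85% of all varying probe sets. The part of these differences in those of the cyclins and Cdks was not tested.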

How the data were processed

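Total RNA of 6 S2 cultures was labelled with a 3' in vitro transcription kit and hybridised to Affymetrix arrays, per the labels' protocols. The deposited values were log2 values normalized by the authors, from 5.35 to 14.1. The submitters' processing notes name R 2.7.2, while the sources used here do not give the method of summary and normalization. Groups came from the sample titles. The values were used as deposited, without 183 control probe sets. Of the 18769 tested, 13647 had 1 gene symbol, 402 had several genes and 4720 were not listed. Differences were tested with limma 3.58.1 in R 4.3.3 (prior SD 4.38e-09 with 0.123 prior degrees of freedom over all probe sets, 0.0612 with 1.36 among varying ones), after tests on simulated data. No genome build is named, so no coordinates are given. The genes, the lists and the second fit were chosen with earlier results of these data known. Named were all 6 probe sets and, from each list, the genes past the threshold over all probe sets, filled up to 3 by smallest p among varying ones. Cks85A, CycT, Eip63E and PCNA were added after their values were seen. Arrays give no read depth.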

Additional observations from a re-analysis of the deposited data

How the results depend on the processing

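With 3 arrays a group and no detection calls, a weak or flat value does not show that a gene kept its level. The 24 varying cell cycle genes named had 591 values under alternatives, each set against the fit over all probe sets. Of these, 501 kept their direction and side of the threshold, 68 passed newly, 8 no longer passed and 14 changed sign, all 14 on the spike scale. Those 14 were 0.10 for CycB, 0.074 for Rbf2, 0.092 for gwl, 0.19 for endos, 0.034 for thr, 0.15 for lok and 0.065 for mre11, each over all and among varying probe sets. The 8 were all of Cdc6, the only one of the 24 to pass in the fit over all probe sets, so no other gene could lose a call. Calls made only among the varying probe sets and lost there count among the 501. CycE and Cdk2 each lost theirs in 5 of the 6 omissions of an array. The numbers of probe sets past the threshold on the array, among the 6 cyclins and Cdks and in the 5 lists were 57, 0 and 1 as deposited. They were 496, 3 and 3 among the varying probe sets, and 449, 3 and 2 there with a robust prior. Over all probe sets they were 128, 0 and 2 after quantile normalization, 1685, 3 and 9 on the spike scale, 696, 4 and 5 when centred on the median of varying probe sets, and 205, 1 and 2 without low probe sets. They were 19, 0 and 0 without ambiguous suffixes, where only CycB3 of the 6 could be tested. Scalings added after the data were seen, among varying probe sets, gave 570, 2 and 4 (quantile), 1490, 2 and 8 (spikes) and 598, 4 and 3 (median). With 1 array left out, the 3 counts ranged from 0 to 876, 0 to 3 and 0 to 4, and among varying probe sets the first was 140, 129 and 318 when fragments replicates 1 to 3 were left out in turn, and 156, 183 and 876 for those of medium alone. The median difference of the 6 was -0.38, and -0.12 on the spike scale. On that scale flat probe sets carry the spikes' spread, so its counts are not comparable with the others. The replicate number as a block gave 0, 0 and 0 over all probe sets and 449, 3 and 4 among varying ones. Among varying probe sets the block ended the calls of Cdk2 (limma adjusted p = 0.0588) and CycY (0.115), and Cdk4 (0.0324), Cdk8 (0.0496) and Cks30A (0.0401) passed. Deviations of arrays sharing a number correlated at 0.442, 0.038 and 0.375. Those of differing numbers correlated at -0.485 to 0.463, the highest for fragments replicate 1 with medium-alone replicate 2. The labels state no pairing, so the main fits did not pair the cultures by number. Whether the cultures were paired was not tested.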
